A study of Mus musculus with 9 samples.

Results

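The 9 genes described here encode the enzymes with which the pancreas digests fat and starch. They are the lipase Pnlip, the lipase-related Pnliprp1 and Pnliprp2, the carboxyl ester lipase Cel, the lipase cofactor colipase (Clps), the phospholipase Pla2g1b, and the amylases Amy1, Amy2a5 and Amy2b. These 6 lipid-digestion genes and 3 amylase genes were chosen by name among 55453 gene symbols in the count files. All 9 passed the filter on low counts, as did 19166 symbols in all.

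RNA of whole e18.5 mouse pancreas on a mixed C57BL6 background was sequenced in 9 libraries, 3 in each of 3 groups. The groups were labelled Pdx1:Cre;Grg3Grg4, Pdx1:Cre;Grg3 and Pdx1:Cre, and are called here the libraries labelled Grg3 Grg4 mutant, Grg3 mutant and control. All 9 carried the Cre transgene, driven from the promoter of Pdx1, a transcription factor of the pancreas, so the controls are not wild type. Grg3 and Grg4, whose genes are Tle3 and Tle4, are Groucho co-repressors that DNA-bound transcription factors recruit. The labels do not say that each library came from a separate embryo, and p-values then measure only the spread between these libraries.

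Acinar cells make these enzymes and store them in zymogen granules for release into the duodenum. Pancreatic lipase cleaves dietary triglyceride and needs colipase, a small protein that anchors it to bile-coated fat droplets. In rodents the lipase-related genes are active around birth and during suckling, when the diet is milk fat, and Pnlip comes up later. Carboxyl ester lipase hydrolyses cholesterol and retinyl esters when bile salts activate it, and the phospholipase is secreted as a proenzyme that trypsin activates. Amylase breaks starch into short sugars. In mice Amy1 is the salivary and liver form and the Amy2 genes are the pancreatic forms.

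Gene counts summed to 46817453 to 62744499 per library, and the 9 genes took 8.43% to 14.7% of them. Tle3 went against the labels, at 131, 126 and 146 CPM (counts per 1000000 after scaling) in Grg3 Grg4 mutant libraries and 148, 167 and 145 CPM in Grg3 mutant libraries, against 63.1, 67.7 and 63.7 CPM in control libraries. Tle4 had 10.7, 15.5 and 8.63 CPM in Grg3 Grg4 mutant libraries and 9.84, 13.0 and 13.8 CPM in Grg3 mutant libraries, against 7.85, 7.79 and 7.68 CPM in control libraries, so it too was above every control in each library. Its log2 changes of 0.58 (SE 0.21) in Grg3 Grg4 mutant and 0.65 (SE 0.21) in Grg3 mutant libraries did not pass (edgeR adjusted p = 0.155 and 0.132). Reads were counted over the whole gene and do not show whether single exons were lost, and every direction below is between labels. The acinar markers Cpa1, Cela1, Ptf1a, Rbpjl and Bhlha15 were all detected in each group. Their summed level was 16520 to 17710 CPM in Grg3 Grg4 mutant libraries and 13210 to 26860 CPM in Grg3 mutant libraries, against 27170 to 31420 CPM in control libraries. All 11 liver markers were detected in each group, and their sum was 829 to 2020 CPM in Grg3 Grg4 mutant libraries and 364 to 1794 CPM in Grg3 mutant libraries, against 213 to 228 CPM in control libraries. By edgeR, 8 of the 11 were called higher in each mutant-labelled group, while DESeq2 called 10 in Grg3 Grg4 mutant and 11 in Grg3 mutant libraries, and limma 3 and 2. Their median log2 changes were 6.70 in Grg3 Grg4 mutant and 5.91 in Grg3 mutant libraries, larger than the sums show. In control libraries Alb, Afp, Apoa2 and Fgg averaged 3.44, 1.63, 0.197 and 0.035 CPM, so other markers of the list made up most of the control sum. The sum of 5 endocrine markers was 1720 to 3828 CPM in Grg3 Grg4 mutant libraries and 3277 to 5332 CPM in Grg3 mutant libraries, against 5546 to 6721 CPM in control libraries. Of these, Ins2 was called lower by edgeR in Grg3 Grg4 mutant libraries. The sum of 7 stomach and intestine markers was 3.75 to 5.75 CPM in Grg3 Grg4 mutant libraries and 4.48 to 18.1 CPM in Grg3 mutant libraries, against 2.38 to 2.72 CPM in control libraries. Only 2 of these 7 passed the low-count filter and were tested, the galectin Lgals4 and Fabp2. EdgeR called Lgals4 higher in Grg3 mutant libraries and with both mutant-labelled groups set against control. Lipf was at 0 throughout. The sum of 4 muscle markers was 224, 1523 and 118 CPM in Grg3 Grg4 mutant libraries and 157, 376 and 168 CPM in Grg3 mutant libraries, against 82.6, 66.8 and 63.8 CPM in control libraries. Every mutant-labelled library was thus above every control for the liver, muscle, and stomach and intestine sums, and below every control for the acinar and endocrine sums. Duct markers (4) summed to 383 to 599 CPM in Grg3 Grg4 mutant libraries, below every control at 599.7 to 669.6 CPM. In Grg3 mutant libraries the duct sum lay within the control range. Blood markers (3) summed to 579 to 1258 CPM in Grg3 Grg4 mutant libraries, overlapping the controls at 673 to 730 CPM. In Grg3 mutant libraries the blood sum was 815 to 1430 CPM, above every control. The acinar sum rested mostly on Cpa1 and Cela1, with control means of 22010 and 6624 CPM. Only 3 of the 5 acinar markers had a log2 change below 0 in each mutant-labelled group. Of the 5 endocrine markers, 5 were below 0 in Grg3 Grg4 mutant and 4 in Grg3 mutant libraries, where DESeq2 called 1 higher and 0 lower. Grg3 mutant replicate 2 had the lowest level of Pnliprp1, Pnliprp2, Cel, Amy1, Amy2a5 and Amy2b of all 9 libraries, and also the lowest acinar marker sum.

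Promoter windows of 3 lipid genes are shown because these genes differ in how they stood against control, so they were picked with the outcome known. Each window is the 250 bases before the RefSeq start site on GRCm38.p6, 5′ to 3′ on the gene's strand. The acinar factor PTF1 binds a paired site, an E-box with a TC-box near it. Capitals mark the letters CAGGTG or CACCTG, the E-box on either strand, and TTTCCC or GGGAAA, the TC-box on either strand. The windows are Pnliprp2 on the plus strand at chr19:58759473-58759722, Cel on the minus strand at chr2:28563404-28563653 and Pnliprp1 on the plus strand at chr19:58728637-58728886.
Pnliprp2: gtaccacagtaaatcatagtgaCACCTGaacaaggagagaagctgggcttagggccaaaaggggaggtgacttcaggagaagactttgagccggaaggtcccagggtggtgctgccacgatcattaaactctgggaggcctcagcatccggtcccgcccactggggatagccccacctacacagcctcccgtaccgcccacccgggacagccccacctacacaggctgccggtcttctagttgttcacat
Cel: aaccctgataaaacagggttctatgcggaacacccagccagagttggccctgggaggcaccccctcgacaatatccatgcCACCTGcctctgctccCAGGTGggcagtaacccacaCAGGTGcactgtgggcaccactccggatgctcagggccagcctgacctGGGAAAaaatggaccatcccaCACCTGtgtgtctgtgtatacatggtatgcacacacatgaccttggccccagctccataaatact
Pnliprp1: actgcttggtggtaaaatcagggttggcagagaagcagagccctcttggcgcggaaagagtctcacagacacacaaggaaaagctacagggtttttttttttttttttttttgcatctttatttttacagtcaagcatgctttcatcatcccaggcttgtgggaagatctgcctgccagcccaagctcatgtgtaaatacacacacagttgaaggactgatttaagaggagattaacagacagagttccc
Cel held 4 E-boxes, 170, 154, 134 and 65 bases before the start, and 1 TC-box 86 bases before it, the nearest pair being 21 bases apart. Pnliprp2 held 1 E-box, 228 bases before the start, and no TC-box. Pnliprp1 held neither. Of the 8 genes with a window in the RefSeq table, 3 held an E-box, 1 a TC-box and 1 both. The remaining gene with an E-box was Amy2b, 132 bases before the start, which passed in no comparison. Pla2g1b, which was called lower like Pnliprp2, held neither. Across 32851 promoter windows of the same length, 17.2% held an E-box, 21.9% a TC-box and 3.61% both. A match describes letters and says nothing of binding.

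The amylase genes lie together on chromosome 3 and are near copies of each other, so their counts are less certain than those of the lipases. The 60 bases below are positions 187 to 246 of the Amy2a5 coding sequence in GENCODE M21, with the bases that align to them in Amy2b and Amy1. They were picked as the gapless stretch where Amy2b differs most from Amy2a5, and so overstate how far these genes differ. Capitals mark bases that differ from Amy2a5, 6 in Amy2b and 10 in Amy1.
Amy2a5: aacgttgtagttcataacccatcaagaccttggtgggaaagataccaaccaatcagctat
Amy2b: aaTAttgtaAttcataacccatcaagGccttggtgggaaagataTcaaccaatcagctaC
Amy1: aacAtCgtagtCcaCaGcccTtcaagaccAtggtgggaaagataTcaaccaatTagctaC
GENCODE M21 annotates Amy2b as a pseudogene, so its transcript was compared in place of a coding sequence. Over the whole coding sequence of Amy2a5, the Amy2b transcript matched Amy2a5 at 98.1% of 1523 aligned bases and Amy1 matched it at 89.9% of 1524. Amy2a2, Amy2a3 and Amy2a4, 3 further symbols of the cluster, matched it at 100%, and the shorter gene model Amy2a1 matched it at all 735 aligned bases. Every 50-base stretch of the annotated exons of Pnlip, Pnliprp1, Pnliprp2, Cel, Clps and Pla2g1b was unique among the transcripts. Unique stretches were 46.5% for Amy2a5, 59.8% for Amy2b, 66.7% for Amy1, 5.11% for Amy2a1 and 0% for Amy2a2, Amy2a3 and Amy2a4. Reads aligned to several places, which the files list apart from the genes, were 15.8% to 20.7% of a library.

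In the genome (GRCm38, GENCODE M21) the 3 pancreatic lipase genes sit side by side on the plus strand of chromosome 19. Pnlip lies at chr19:58652498-58681788, Pnliprp1 at chr19:58728887-58744169 and Pnliprp2 at chr19:58759719-58777534. Their coding sequences were 72.9% to 73.7% identical to each other. Cel lies at chr2:28555795-28563403, Clps at chr17:28558149-28560766 and Pla2g1b at chr5:115466262-115474722. Amy2b lies at chr3:113147656-113156727, Amy2a5 at chr3:113247178-113258837 and Amy1 at chr3:113555710-113606699.

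Per exon length, colipase and Pnliprp1 stood at the top and Pnlip at the bottom in every group. Clps and Pnliprp1 ranked 2 and 3 among 19016 genes with a length in each of the 3 groups. Clps had 32670 ± 4691 CPM per kb in Grg3 Grg4 mutant libraries and 43160 ± 11300 in Grg3 mutant libraries, against 51910 ± 5544 in control libraries (SD, n = 3 each). Pnliprp1 had 27480 ± 1836 CPM per kb in Grg3 Grg4 mutant libraries and 27620 ± 10350 in Grg3 mutant libraries, against 37130 ± 2923 in control libraries. Within every library of all 3 groups Clps lay above Pnliprp1. Across libraries, their ranges overlapped in each mutant-labelled group and did not in the control group.

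Cel came after them, at 7737 ± 244 CPM per kb in Grg3 Grg4 mutant libraries and 6955 ± 2490 in Grg3 mutant libraries, against 13190 ± 1341 in control libraries. Amy2b came next, at 3259 ± 1490 CPM per kb in Grg3 Grg4 mutant libraries and 3041 ± 718 in Grg3 mutant libraries, against 4050 ± 429 in control libraries. Pnliprp2 had 655 ± 47.8 CPM per kb in Grg3 Grg4 mutant libraries and 673 ± 148 in Grg3 mutant libraries, against 1561 ± 169 in control libraries. In the order, Amy2a5 lay beside Pnliprp2, at 667 ± 25.5 CPM per kb in Grg3 Grg4 mutant libraries and 575 ± 277 in Grg3 mutant libraries, against 791 ± 132 in control libraries. The ranges of Pnliprp2 and Amy2a5 overlapped within each mutant-labelled group, while in the control libraries Pnliprp2 stayed above Amy2a5 throughout. This order rests on dividing by exon lengths of 3.973 kb for Amy2a5 and 1.572 kb for Pnliprp2. Before that division Amy2a5 had the higher mean CPM in every group, at 3141 against 2455 in control libraries. Amy2a5 counts are also less certain, with 46.5% of its 50-base stretches unique. Pla2g1b and Amy1 were far lower, at 66.6 ± 10.1 and 15.5 ± 1.85 CPM per kb in control libraries.

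**Figure D1:**
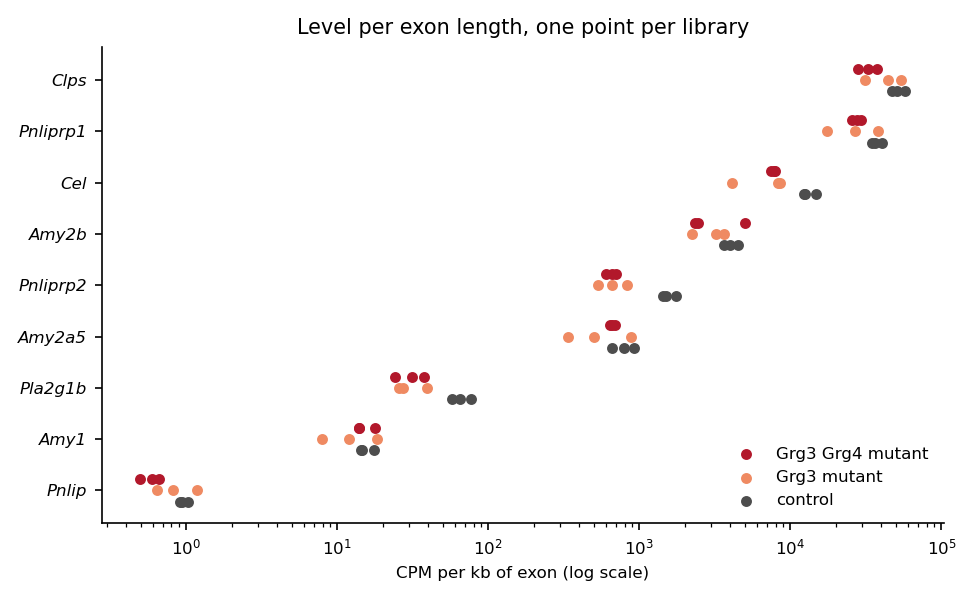
Level of each gene in CPM per kb of exon on a log axis, 1 point per library, with libraries labelled Grg3 Grg4 mutant above Grg3 mutant and control. Clps and Pnliprp1 lie at the top and Pnlip at the bottom, at 0.585, 0.880 and 0.963 CPM per kb on average in the Grg3 Grg4 mutant, Grg3 mutant and control libraries.

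Pnlip, the main lipase of the adult gland, was barely detected at this stage. It had 81, 74 and 64 counts in Grg3 Grg4 mutant libraries and 142, 131 and 69 counts in Grg3 mutant libraries, against 99, 96 and 103 counts in control libraries. On the CPM scale it had 1.46, 1.09 and 1.31 in Grg3 Grg4 mutant libraries and 2.60, 1.80 and 1.40 in Grg3 mutant libraries, against 2.07, 2.01 and 2.27 in control libraries. The Grg3 Grg4 mutant libraries lay below all controls, and the Grg3 mutant libraries overlapped them. The log2 changes of -0.72 (SE 0.27) in Grg3 Grg4 mutant and -0.13 (SE 0.27) in Grg3 mutant libraries did not pass (edgeR adjusted p = 0.176 and 0.839).

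Libraries labelled Grg3 Grg4 mutant were set against control to ask how these genes stand when both co-repressor genes are targeted. Pnliprp2 fell to 41.9% and Pla2g1b to 46.4% of control, and the other 7 genes did not pass. Of the 9 genes, 2 were called lower and 0 higher, against 0.897% of all genes tested called lower (172 of 19166, edgeR adjusted p under 0.05). At an unadjusted p under 0.05, 5 of the 9 passed, all lower, against 3866 of the 19166 genes tested, in either direction. All Grg3 Grg4 mutant libraries lay below all control libraries for 6 genes, Pnlip, Pnliprp1, Pnliprp2, Cel, Clps and Pla2g1b, against 14.2% of all genes. The median log2 change was -0.67 over the 9 genes and 0.01 over all genes. In bulk tissue, fewer acinar cells and less RNA per acinar cell cannot be told apart, and the part of the acinar, endocrine, duct, liver, muscle, blood, and stomach and intestine marker sums in these differences was not tested.

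Libraries labelled Grg3 mutant were set against control to ask the same for Grg3 alone. Pnliprp2 fell to 43.1% and Pla2g1b to 46.3% of control. Of the 9 genes, 2 were called lower and 0 higher by edgeR, against 0.694% of all genes called lower, and 3 passed at an unadjusted p under 0.05, all lower, against 3661 of the 19166 genes in either direction. The Grg3 mutant libraries lay below all controls for 4 genes, Pnliprp2, Cel, Pla2g1b and Amy2b, against 12.0% of all genes. The median log2 change was -0.43 over the 9 genes and 0.02 over all genes.

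With both mutant-labelled groups set against control, 2 genes, Pnliprp2 and Pla2g1b, were called lower, against 1.19% of all genes. For 3 genes, Pnliprp2, Cel and Pla2g1b, all 6 mutant-labelled libraries lay below all controls, against 5.75% of all genes. The 3 comparisons share the control libraries and are not independent of each other.

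Pnliprp2 encodes a lipase that also cleaves phospholipids and galactolipids. It had 1034, 952 and 1102 CPM in Grg3 Grg4 mutant libraries and 1030, 840 and 1302 CPM in Grg3 mutant libraries, against 2368, 2752 and 2244 CPM in control libraries. The highest mutant-labelled library lay well below the lowest control. The log2 change was -1.25 (SE 0.17, 95% interval -1.62 to -0.88, edgeR adjusted p = 0.0084) in Grg3 Grg4 mutant libraries and -1.22 (SE 0.17, interval -1.59 to -0.84, edgeR adjusted p = 0.0111) in Grg3 mutant libraries. With both groups set against control it was -1.23 (SE 0.14, edgeR adjusted p = 0.0027), and that call was kept in all 17 alternatives tried.

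Pla2g1b, the secreted phospholipase of pancreatic juice, was far less abundant and fell by a similar size. It had 22.2, 17.1 and 26.8 CPM in Grg3 Grg4 mutant libraries and 19.4, 18.4 and 28.3 CPM in Grg3 mutant libraries, against 46.5, 55.2 and 40.9 CPM in control libraries. The mutant-labelled groups did not overlap the control. The log2 change was -1.11 (SE 0.20, interval -1.56 to -0.66) in each mutant-labelled group (edgeR adjusted p = 0.0277 in Grg3 Grg4 mutant and 0.0324 in Grg3 mutant libraries). With both groups set against control it was -1.11 (SE 0.17, edgeR adjusted p = 0.0117), and only leaving out control replicate 2 ended that call (-0.99, edgeR adjusted p = 0.0932).

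All 3 Grg3 Grg4 mutant libraries were male by their Y-linked counts, against 1 of 3 in each of the other groups. With sex as a term in the fit, the Grg3 Grg4 mutant calls of Pnliprp2 (-1.21, edgeR adjusted p = 0.0725) and Pla2g1b (-1.01, edgeR adjusted p = 0.162) were lost, as was the Grg3 mutant call of Pla2g1b (-1.11, edgeR adjusted p = 0.0513). Among male libraries, Pnliprp2 had 952 to 1102 CPM in Grg3 Grg4 mutant libraries and 1030 CPM in the Grg3 mutant library, against 2368 CPM in the control library. Among female libraries, Pnliprp2 had 840 and 1302 CPM in Grg3 mutant libraries, against 2752 and 2244 CPM in control libraries. Pla2g1b in males had 17.1 to 26.8 CPM in Grg3 Grg4 mutant libraries and 19.4 CPM in the Grg3 mutant library, against 46.5 CPM in the control library. In females Pla2g1b had 18.4 and 28.3 CPM in Grg3 mutant libraries, against 55.2 and 40.9 CPM in control libraries. Both genes were thus lower within each sex, in groups of 1 to 3 libraries.

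Single libraries also decided some calls. Without control replicate 2, the Pnliprp2 call was lost in Grg3 Grg4 mutant (-1.16, edgeR adjusted p = 0.051) and Grg3 mutant libraries (-1.12, edgeR adjusted p = 0.0563), and the Grg3 mutant call was also lost without control replicate 3 (-1.28) or Grg3 mutant replicate 1 (-1.19). The Pla2g1b call was lost in both groups without any one of the 3 controls, and without replicate 1 or 2 of the mutant-labelled group, with log2 changes of -1.21 to -0.95 in those fits.

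**Figure D2:**
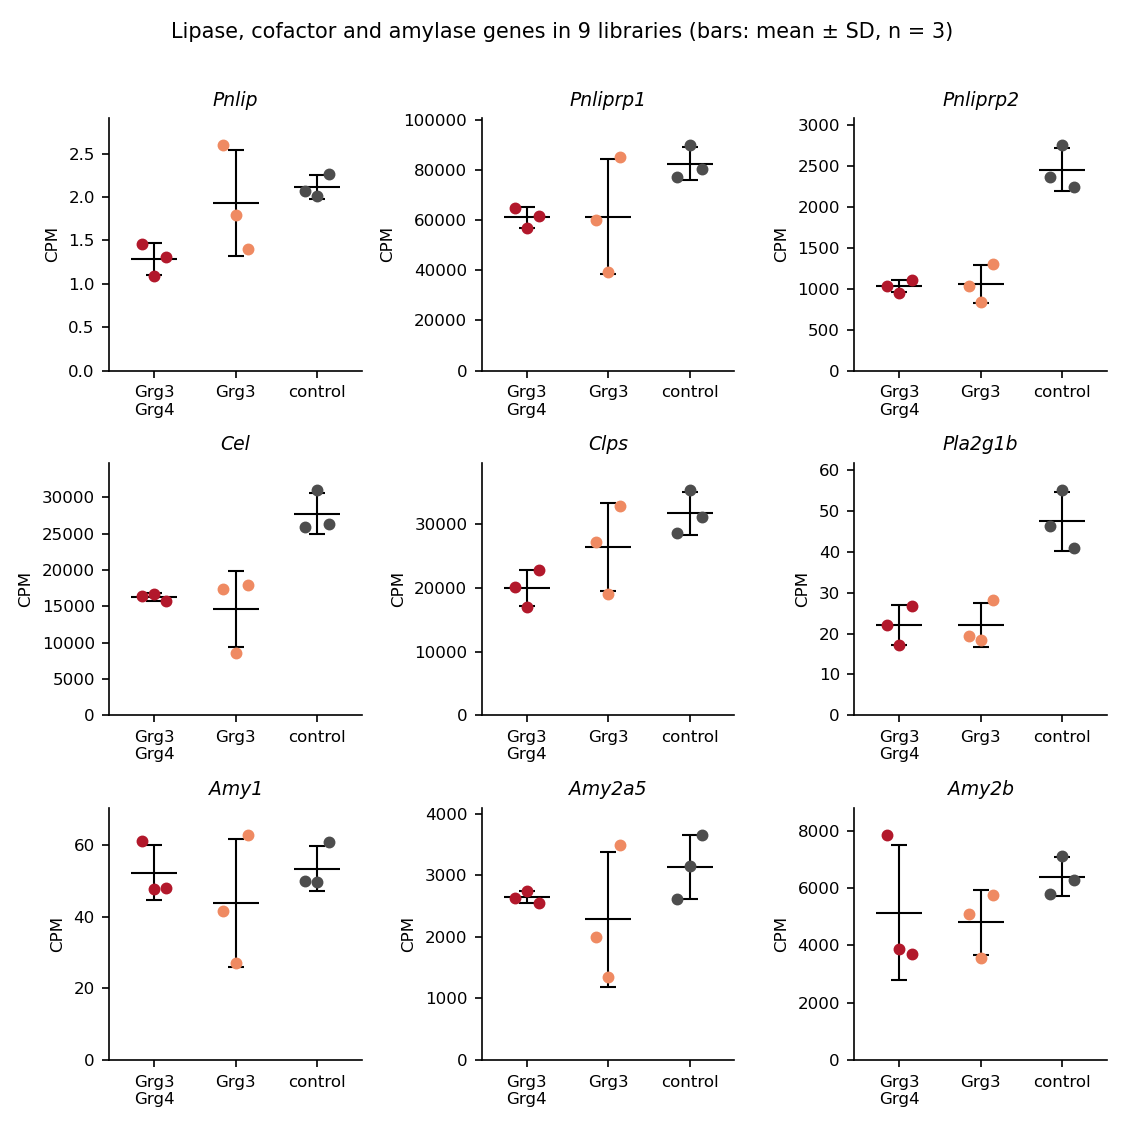
CPM of the 9 genes in each library, with points for libraries and bars for mean ± SD (n = 3), in the order Grg3 Grg4 mutant, Grg3 mutant and control. For Pnliprp2, Cel and Pla2g1b all 6 mutant-labelled points lie below the 3 control points.

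Cel was lower than control in every mutant-labelled library without passing edgeR. It had 16450, 16680 and 15700 CPM in Grg3 Grg4 mutant libraries and 17370, 8594 and 17940 CPM in Grg3 mutant libraries, against 25930, 31000 and 26310 CPM in control libraries. Grg3 mutant replicate 2 was the lowest by a wide margin. The log2 change was -0.77 (SE 0.26, interval -1.36 to -0.18, edgeR adjusted p = 0.145) in Grg3 Grg4 mutant and -0.92 (SE 0.27, interval -1.51 to -0.33, edgeR adjusted p = 0.109) in Grg3 mutant libraries. With both groups set against control it was -0.85 (SE 0.22, edgeR adjusted p = 0.0813), and without Grg3 mutant replicate 2 it passed at -0.71 (edgeR adjusted p = 0.0101). The other tools called Cel lower in Grg3 Grg4 mutant libraries (DESeq2 adjusted p = 0.00985, limma adjusted p = 0.0288). They also did so in Grg3 mutant libraries (DESeq2 adjusted p = 0.00124, limma adjusted p = 0.0471) and with both groups together (DESeq2 adjusted p = 0.000456, limma adjusted p = 0.0167).

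Colipase, the cofactor without which bile salts keep pancreatic lipase off its substrate, did not pass edgeR. Clps had 20080, 17040 and 22770 CPM in Grg3 Grg4 mutant libraries and 27230, 19070 and 32810 CPM in Grg3 mutant libraries, against 28630, 35340 and 31180 CPM in control libraries. The Grg3 Grg4 mutant libraries lay below all controls, and Grg3 mutant replicate 3 lay among the controls. The log2 changes were -0.67 (SE 0.23, interval -1.19 to -0.15, edgeR adjusted p = 0.151) in Grg3 Grg4 mutant and -0.27 (SE 0.23, interval -0.79 to 0.25, edgeR adjusted p = 0.572) in Grg3 mutant libraries. The other tools called it lower in Grg3 Grg4 mutant libraries (DESeq2 adjusted p = 0.00754, limma adjusted p = 0.0371), and DESeq2 did so with both groups set against control (adjusted p = 0.0428).

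Pnliprp1, a lipase relative with little known activity on triglyceride, was the largest single source of counts among the 9. It had 64940, 56810 and 61510 CPM in Grg3 Grg4 mutant libraries and 59870, 39170 and 85130 CPM in Grg3 mutant libraries, against 77280, 89810 and 80550 CPM in control libraries. The Grg3 mutant libraries ran from the lowest of the 9 to above 2 of the controls. The log2 change was -0.43 (SE 0.28) in each mutant-labelled group, with intervals of -1.07 to 0.20 in Grg3 Grg4 mutant and -1.06 to 0.20 in Grg3 mutant libraries (edgeR adjusted p = 0.432 and 0.445). The Grg3 mutant value was -0.74 without replicate 3 of that group and -0.19 without its replicate 2, and it passed in neither fit.

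**Figure D3:**
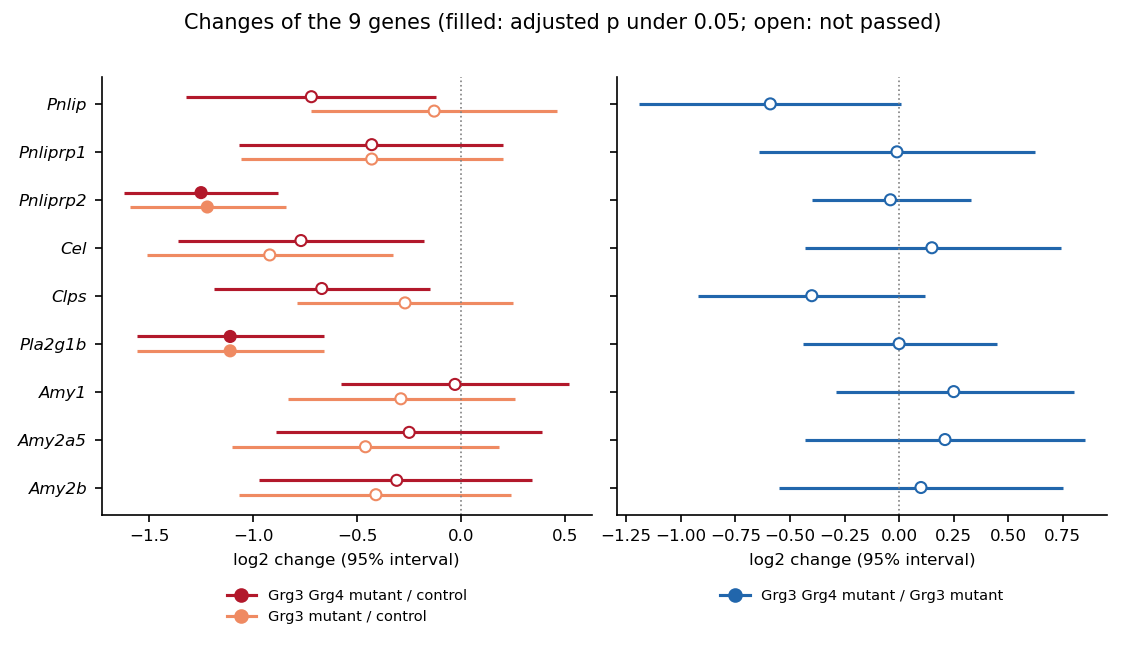
Log2 change with its 95% interval for each gene, Grg3 Grg4 mutant above Grg3 mutant against control in the left panel, and Grg3 Grg4 mutant against Grg3 mutant in the right panel. Filled points passed edgeR at an adjusted p under 0.05, and the filled points are those of Pnliprp2 and Pla2g1b in the left panel.

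The 3 amylase genes did not pass in any comparison, singly or summed. Amy2b, annotated as a pseudogene in GENCODE M21 and as protein coding in RefSeq, had 7852, 3863 and 3706 CPM in Grg3 Grg4 mutant libraries and 5103, 3541 and 5743 CPM in Grg3 mutant libraries, against 5781, 7116 and 6264 CPM in control libraries. Grg3 Grg4 mutant replicate 1 was above all controls, and replicates 2 and 3 of that group were below them. Amy2a5 had 2638, 2754 and 2552 CPM in Grg3 Grg4 mutant libraries and 2006, 1351 and 3498 CPM in Grg3 mutant libraries, against 2613, 3149 and 3661 CPM in control libraries. Both mutant-labelled groups overlapped the control. Amy1, whose exons overlap those of Rnpc3 by 1128 bases, had 61.1, 47.8 and 48.0 CPM in Grg3 Grg4 mutant libraries and 41.6, 27.2 and 62.9 CPM in Grg3 mutant libraries, against 49.97, 49.6 and 60.8 CPM in control libraries. Grg3 mutant replicates 2 and 3 were the lowest and the highest of the 9 libraries for Amy1.

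The log2 changes in Grg3 Grg4 mutant libraries were -0.03 for Amy1, -0.25 for Amy2a5 and -0.31 for Amy2b (edgeR adjusted p = 0.961, 0.683 and 0.600). In Grg3 mutant libraries they were -0.29, -0.46 and -0.41 in the same order (edgeR adjusted p = 0.565, 0.418 and 0.479). The SE was 0.25 to 0.29, and the lowest bound of the 95% intervals was -1.10, for Amy2a5 in Grg3 mutant libraries. Single libraries moved these values. Without Grg3 mutant replicate 3, the Grg3 mutant values were -0.64 for Amy1, -0.90 for Amy2a5 (edgeR adjusted p = 0.0714) and -0.56 for Amy2b. Without Grg3 mutant replicate 2 they were -0.03, -0.19 and -0.24 in the same order. Amy2b in Grg3 Grg4 mutant libraries was -0.76 without replicate 1 of that group and -0.13 without its replicate 3.

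Because reads can move between near-identical copies, the 7 amylase symbols were also summed. The sum does not bring back reads aligned to several places, which the files list apart from the genes. The sum was 19550, 14960 and 15110 CPM in Grg3 Grg4 mutant libraries and 14900, 9615 and 22170 CPM in Grg3 mutant libraries, against 16660, 23750 and 20820 CPM in control libraries. Both mutant-labelled groups overlapped the control. The log2 change was -0.30 (SE 0.29, interval -0.94 to 0.34, edgeR adjusted p = 0.604) in Grg3 Grg4 mutant and -0.39 (SE 0.29, interval -1.03 to 0.25, edgeR adjusted p = 0.493) in Grg3 mutant libraries. Within the sum, Amy2a3 took 27.0% to 41.3% of the counts, Amy2b 24.5% to 40.2%, Amy2a5 13.3% to 18.4% and Amy1 0.209% to 0.320%. Amy2a3 took this share although no 50-base stretch of its exons is unique, so the split between symbols is uncertain.

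**Figure D4:**
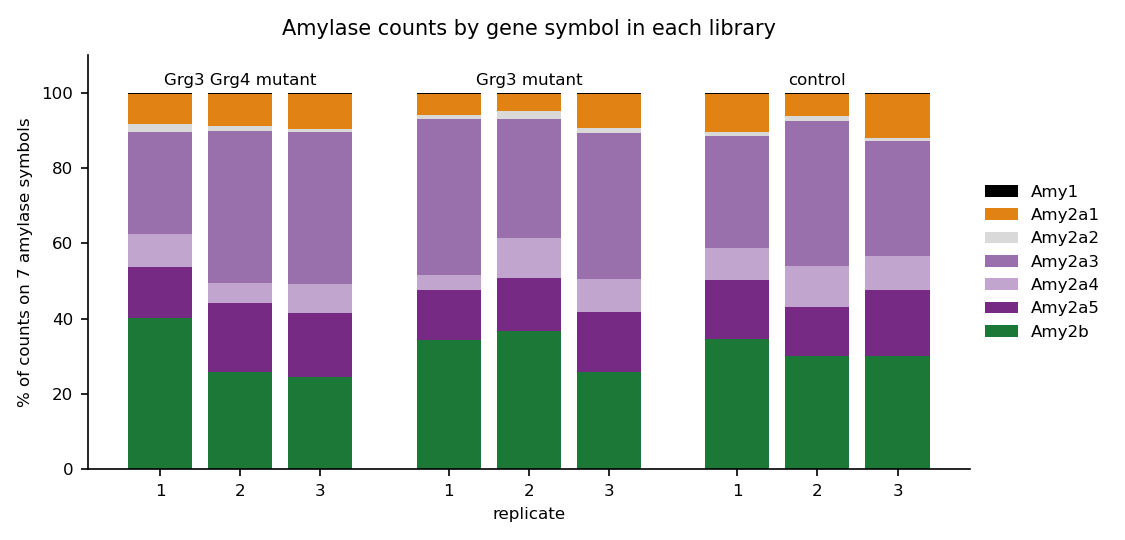
Share of the counts on 7 amylase symbols taken by each symbol, in percent, 1 bar per library, in the order Grg3 Grg4 mutant, Grg3 mutant and control. Amy2a3 takes 27.0% to 41.3% and Amy2b 24.5% to 40.2%, and Amy1 is at most 0.320%.

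Ratios within a library need no scaling between libraries and show which genes moved apart. Per 1000 Pnliprp1 counts, Pnliprp2 had 15.9, 16.8 and 17.9 counts in Grg3 Grg4 mutant libraries and 17.2, 21.4 and 15.3 in Grg3 mutant libraries, against 30.6, 30.7 and 27.9 in control libraries. Pla2g1b had 0.342, 0.302 and 0.436 counts in Grg3 Grg4 mutant libraries and 0.324, 0.471 and 0.332 in Grg3 mutant libraries, against 0.602, 0.614 and 0.507 in control libraries. Both ratios were below every control in each mutant-labelled library. Cel stood likewise, at 253, 294 and 255 counts in Grg3 Grg4 mutant libraries and 290, 219 and 211 in Grg3 mutant libraries, against 336, 345 and 327 in control libraries. Clps had 309, 300 and 370.1 counts in Grg3 Grg4 mutant libraries and 455, 487 and 385 in Grg3 mutant libraries, against 370.5, 394 and 387 in control libraries. Its Grg3 Grg4 mutant libraries thus lay just below the controls and its Grg3 mutant libraries overlapped them. Amylase counts of the 7 symbols overlapped, at 246 to 301 in Grg3 Grg4 mutant libraries and 246 to 260 in Grg3 mutant libraries, against 216 to 264 in control libraries.

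The gene below the line matters for such ratios. Per 1000 counts of the carboxypeptidase Cpa1, Pnliprp2 had 81.5 to 91.7 counts in Grg3 Grg4 mutant libraries and 65.0 to 89.1 in Grg3 mutant libraries, against 102.6 to 119 in control libraries, again without overlap. Pla2g1b had 1.47 to 2.23 counts in Grg3 Grg4 mutant libraries and 1.29 to 1.96 in Grg3 mutant libraries, against 2.01 to 2.38 in control libraries, so that here the Grg3 Grg4 mutant libraries overlapped the controls. Cel had 1306 to 1428 counts in Grg3 Grg4 mutant libraries and 896 to 1157 in Grg3 mutant libraries, against 1124 to 1338 in control libraries, and both groups overlapped the control. Pnliprp1 had 4863 to 5307 counts in Grg3 Grg4 mutant libraries and 3988 to 4253 in Grg3 mutant libraries, against 3349 to 4069 in control libraries, above every control in the first of these groups. Amylase counts of the 7 symbols stood at 1257 to 1597 in Grg3 Grg4 mutant libraries and 993 to 1108 in Grg3 mutant libraries, against 722 to 1052 in control libraries. Here the Grg3 Grg4 mutant libraries were above every control and the Grg3 mutant libraries overlapped them. Clps stood at 1459 to 1894 counts in Grg3 Grg4 mutant libraries and 1639 to 2024 in Grg3 mutant libraries, against 1241 to 1575 in control libraries, with the Grg3 mutant libraries above every control. A ratio shows unequal change and not which of its genes moved.

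**Figure D5:**
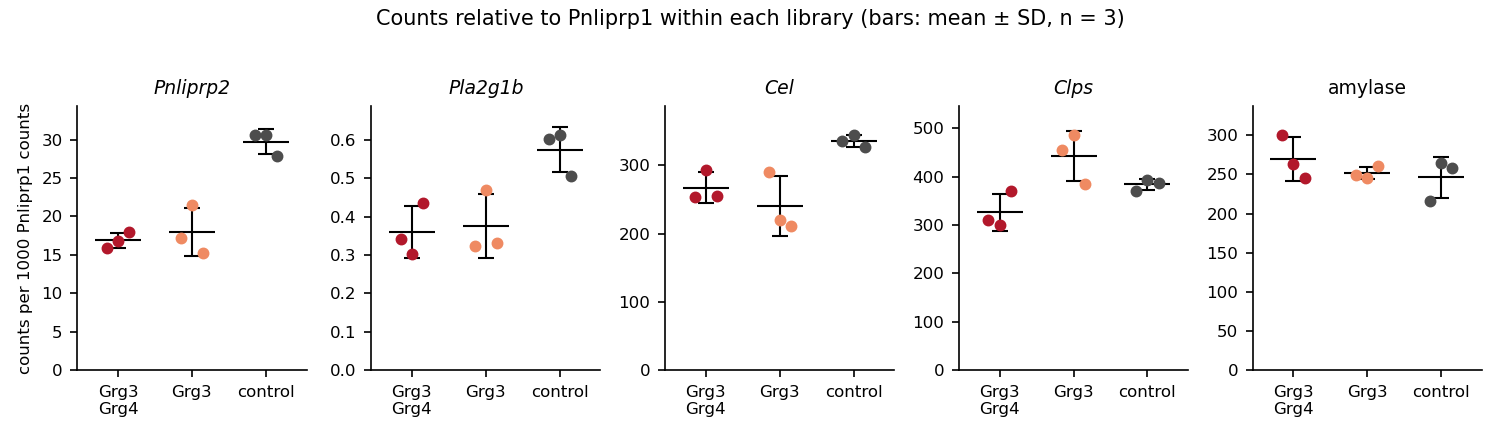
Counts of Pnliprp2, Pla2g1b, Cel, Clps and the 7 amylase symbols per 1000 Pnliprp1 counts in each library, with bars for mean ± SD (n = 3), in the order Grg3 Grg4 mutant, Grg3 mutant and control. For Pnliprp2, Pla2g1b and Cel the 6 mutant-labelled libraries lie below the 3 controls, and for amylase both groups overlap the control.

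Between the libraries labelled Grg3 Grg4 mutant and Grg3 mutant, 0 of the 9 genes passed edgeR, against 0.188% of all genes called in either direction. At an unadjusted p under 0.05, 0 of the 9 passed, against 3319 of the 19166 genes tested, and DESeq2 and limma also called 0. Pnliprp2 differed by -0.04 (interval -0.40 to 0.33) and Pla2g1b by 0.00 (interval -0.44 to 0.45) on the log2 scale. Pnlip differed by -0.59 (SE 0.27, interval -1.19 to 0.01, edgeR adjusted p = 0.297) and Clps by -0.40 (SE 0.23, interval -0.92 to 0.12, edgeR adjusted p = 0.403). The other differences ran from -0.01 for Pnliprp1 to 0.25 for Amy1, and the intervals do not show that the groups were alike.

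Profiles over the 9 libraries were compared by the root mean square difference of centred log2 CPM, among 9329 genes with a mean of at least 10 CPM. This left out Pnlip. Pnliprp2 and Pla2g1b had the closest profiles of the members, 0.14 apart, while Pnliprp2 and Amy1 were 0.56 apart. The ribonuclease Rnase1 was 0.11 from Pnliprp2 and 0.15 from Pla2g1b, and the serpin Serpini2 was 0.14 and 0.08 from them. Serpini2 and Rnase1 were among the 3 nearest genes of both, beside the trypsinogen Try4 (0.16) for Pnliprp2 and 2210010C04Rik (0.13) for Pla2g1b. Among the 3 nearest genes of Pnliprp1 was the pancreatic protein disulfide isomerase Pdia2 (0.06), and nearest to Clps was the chymotrypsinogen Ctrb1 (0.09). Cel had Homer2 (0.14) and the gap junction gene Gjb2 (0.15) nearest. The members' own spread on this scale was 0.35 to 0.61, and all profiles share the same 9 libraries and their scaling.

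Other digestive genes of the acinar cell also stood lower. Of 19 genes of secreted proteases and a nuclease, 6 fell by edgeR in Grg3 Grg4 mutant libraries and 6 in Grg3 mutant libraries, with median log2 changes of -0.69 and -0.56. DESeq2 called 11 and 9 of them lower, and limma 10 and 6. The trypsinogen Prss1 averaged 687 ± 153 CPM in Grg3 Grg4 mutant libraries, against 5616 ± 171 CPM in control libraries (SD, n = 3 each), a log2 change of -3.03 (SE 0.27, edgeR adjusted p = 0.000807). Try4 had a change closer to that of Pnliprp2, at -1.16 (SE 0.19, edgeR adjusted p = 0.0195) in Grg3 Grg4 mutant and -1.38 (SE 0.19, edgeR adjusted p = 0.0124) in Grg3 mutant libraries. Whether reads are shared between trypsinogen copies was not checked here. Of 20 zymogen granule and accessory genes, 6 fell and 1 rose in Grg3 Grg4 mutant libraries, and 3 fell in Grg3 mutant libraries, by edgeR. DESeq2 called 12 lower and 1 higher in Grg3 Grg4 mutant and 9 lower in Grg3 mutant libraries, and limma 12, 1 and 6. Among them, Serpini2 fell, with log2 changes of -1.08 (SE 0.20) in Grg3 Grg4 mutant and -1.20 (SE 0.20) in Grg3 mutant libraries (edgeR adjusted p = 0.0298 and 0.0256).

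Genes of lipid and sugar handling outside the members gave few edgeR calls, as did all genes tested. Of 26 tested lipid-digestion and lipase genes, 1 rose and 0 fell by edgeR in Grg3 Grg4 mutant libraries, with a median of 0.02, while 3 were lower and 6 higher at an unadjusted p under 0.05. DESeq2 called 2 lower and 4 higher there, and limma 1 and 1. Over all 19166 genes in that comparison, edgeR called 410, DESeq2 1553 and limma 1033, and 3866 had an unadjusted p under 0.05. For Grg3 mutant libraries these counts were 268, 1463, 421 and 3661 in the same order. The lipid list was thus not less changed than all genes in Grg3 Grg4 mutant libraries by edgeR, DESeq2, limma or unadjusted p. The endothelial lipase Lipg rose, with 3.24 ± 0.81 CPM in Grg3 Grg4 mutant libraries, against 1.15 ± 0.12 CPM in control libraries (edgeR adjusted p = 0.0226). In Grg3 mutant libraries 1 fell, the diacylglycerol lipase Dagla, at 44.1 ± 7.37 CPM, against 68.5 ± 5.24 CPM in control libraries (edgeR adjusted p = 0.049). The gastric lipase Lipf had 0 counts in all 9 libraries. Of 11 tested carbohydrate-digestion genes, 4 of them the other amylase symbols, 0 passed edgeR in Grg3 Grg4 mutant libraries (1 at an unadjusted p under 0.05, 0 by DESeq2 and limma). In Grg3 mutant libraries 0 passed edgeR (3 unadjusted, 1 by DESeq2, 0 by limma).

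Among 15 acinar transcription factors, 2 fell by edgeR in Grg3 Grg4 mutant libraries, against 0.897% of all genes called lower. The 2 were Rbpj, the DNA-binding partner of Notch signalling that also joins PTF1 (-1.09, SE 0.24, edgeR adjusted p = 0.0484), and the forkhead factor Foxa2 (-0.57, SE 0.13, edgeR adjusted p = 0.0488). Both lay close to the threshold. Calls of list genes were not checked with sex as a term, which took all edgeR calls in this comparison from 410 to 30. In Grg3 mutant libraries 0 of the 15 passed edgeR (1 at an unadjusted p under 0.05, 1 each by DESeq2 and limma). Of the 5 acinar markers 0 passed edgeR in Grg3 Grg4 mutant libraries. At an unadjusted p under 0.05, 2 were lower and 1 higher, and DESeq2 and limma each called 2 lower. Cpa1 stood at -0.88 (edgeR adjusted p = 0.0952) and Rbpjl, the PTF1 subunit of mature acinar cells, at 0.50 (edgeR adjusted p = 0.216).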

How the data were processed

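Whole-pancreas RNA was extracted with a Qiagen kit and sequenced with standard Illumina libraries, per the labels' protocols. The deposited files hold raw counts per gene symbol, with no normalization by the authors. Tools named in the submitters' processing notes are HISAT2, HTSeq, Trim Galore, FastQC, DESeq2 and bedtools, with builds GRCm38 and mm10. Versions, annotation and strand setting: not given in the sources used here. Left out were 5 rows naming no gene, 28.5% to 33.2% of reads.

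Tests were edgeR's quasi-likelihood F tests (edgeR 4.0.16, R 4.3.3) with TMM scaling and filterByExpr (minimum count 10, minimum total 15), 2-sided. One fit held all 9 libraries and a mean for each group, and p was adjusted by Benjamini-Hochberg over 19166 genes. SE is the log2 change over the square root of F. CPM used TMM-scaled totals, and CPM per kb the exon length in GENCODE M21. Alternatives included DESeq2 1.42.0 and limma 3.58.1. The fit was tested on simulated data.

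The 9 genes and all lists were chosen with earlier results of these data known. The text names the members, the other amylase symbols, Tle3, up to 4 genes of smallest p per list, and the 3 genes nearest in profile to each member; some of these are not reported here.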

Additional observations from a re-analysis of the deposited data

How the results depend on the processing

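Of 570 single-gene values under the alternatives, 524 kept their direction and their side of the threshold, 11 gained a call, 18 lost one and 17 changed sign. The number of the 9 genes called was 2 in each comparison with control and 0 between the mutant-labelled groups. With sex as a term it was 0 for Grg3 Grg4 mutant, 1 for Grg3 mutant and 2 for both groups against control. The Wald test of DESeq2 called 4, 3 and 4, and limma's voom with quality weights 4, 3 and 3, with Cel gained throughout by both tools, and Clps in Grg3 Grg4 mutant libraries by both and in both groups together by DESeq2. Fitting only the groups compared gave 3 for Grg3 Grg4 mutant, adding Cel, and 2 for Grg3 mutant. Leaving out 1 library gave 0 to 2 for Grg3 Grg4 mutant, 0 to 2 for Grg3 mutant, 1 to 3 for both groups, and 0 between the mutant-labelled groups. DESeq2 size factors, TMM without acinar enzyme genes and both filters left these counts at 2, 2, 2 and 0, and the cause of the other shifts was not tested. The replicate block also gave 2, 2, 2 and 0. Deviations of same-numbered libraries correlated at -0.0858 to 0.094, against -0.148 to 0.165 for differently numbered ones. No pairing by number was seen, but a correlation over all genes cannot exclude one that touches few genes.

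Over all genes, edgeR called 410, 268 and 397 against control and 36 between the mutant-labelled groups. The block gave 254, 167, 292 and 11, no filter 930, 586, 748 and 228, the sex term 30, 169, 141 and 4, DESeq2 1553, 1463, 1585 and 1019, and limma 1033, 421, 1011 and 24. Leaving out 1 library gave 50 to 320, 32 to 289, 62 to 600 and 6 to 49. The filter of 1 CPM gave 75 between the mutant-labelled groups. Fits of only the groups compared gave 750 for Grg3 Grg4 mutant against control and 10 between the mutant-labelled groups.

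The sign changes all belonged to log2 changes near 0 that passed nowhere. Amy1 in Grg3 Grg4 mutant libraries against control was 0.06 with sex as a term and -0.16 to 0.07 with 1 library left out. Pnlip in Grg3 mutant libraries against control was -0.40 to 0.05 with 1 library left out. Between the mutant-labelled groups, Pnliprp1 was 0.03 with the block, 0.06 with the sex term, and -0.25 to 0.30 with 1 library left out. Pnliprp2 was 0.01 with the sex term and -0.18 to 0.14 with 1 left out, Cel -0.12 to 0.32, Amy2a5 -0.06 to 0.66, and Amy2b -0.34 to 0.29 and -0.05 with limma. Pnlip rested on 64 to 142 counts per library.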
